A study of Mus musculus with 16 samples.

Results

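The circadian clock genes described here were Per1, Per2, Per3, Cry1, Cry2, Arntl (which encodes BMAL1), Clock, Nr1d1, Nr1d2 and Dbp, taken as every probe whose gene symbol on the array was one of these 10 names. They were 10 of the 18138 symbols on the array and were covered by 16 probes, of which 11 were bright enough to be kept and 2 were detected on no array. Of the 10 genes 9 could be tested, since the only Cry1 probe was detected on 0 of 16 arrays. RNA from the livers of 129SV/C57BL/6 mice was measured on 16 Illumina bead arrays, in 4 groups of 4. The groups were wild type (WT) mice on regular chow, c-Met knockout (KO) mice on regular chow, WT mice on a high cholesterol diet, and KO mice on that diet. The latter feed contained 2% cholesterol with 0.5% sodium cholate (the salt of a bile acid), and feeding lasted 30 days on either diet. Met encodes the receptor for hepatocyte growth factor. The study's title calls the deletion conditional, but no Cre driver, age, sex or time of day of liver collection is stated in the labels. Nor do they say that the samples came from separate animals, so p-values measure only the spread between these samples. Where livers of a group are named below, the samples on its arrays are meant.

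In the mammalian clock, BMAL1 and CLOCK bind E-boxes and switch on the Per and Cry genes, whose proteins then repress BMAL1 and CLOCK. In a second loop the nuclear receptors REV-ERB alpha (Nr1d1) and REV-ERB beta (Nr1d2), themselves E-box targets, repress Arntl through elements called ROREs. Dbp, a PAR bZIP transcription factor under strong E-box control, activates genes through D-boxes, among them Per genes. In mouse liver most of these transcripts rise and fall by large factors over a day, with Arntl peaking near the time when Dbp and the Rev-erb genes are at their trough, so that a single liver shows one moment of that cycle.

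Promoter letters are shown here because the arms of the clock set against each other below are named after these elements. Of the 10 genes 9 had a RefSeq promoter entry (build GRCm38.p6), giving 13 start sites, and the 250 bases before each were searched on both strands for the E-box CACGTG, the related CACGTT, the D-box (TTATGTAA or TTACGTAA) and the RORE. The E-box lay in 2 of the 13 member windows (Per1 and Cry1) and in 6.02% of all 32851 windows. CACGTT lay in 3 windows (Cry1, Cry2 and Nr1d1), against 3.85% of all windows. The D-box lay in 1 window, that of Per3, which held it at both of the places shown, against 0.931% of all windows. No member window held the RORE, which 0.332% of all windows did. A match describes the letters only, and a window without one says nothing about binding elsewhere. The stretches around the matches of members other than Cry1 follow, 5′ to 3′ on the strand of the gene, with the motif in capitals (CACGTT read on the other strand is AACGTG). They are Per1 at chr11:69098743-69098828 on the plus strand, Per3 at chr4:151044776-151044910 on the minus strand, Cry2 at chr2:92434190-92434275 on the minus strand and Nr1d1 at chr11:98775378-98775445 on the minus strand. Ciart, at chr3:95882229-95882384 on the minus strand, is shown with them because its transcript, listed on the array as Gm129, varied among livers together with Dbp. Usp2 and Tef, described below, varied with Dbp too. The windows of Usp2 and of Dbp itself held none of these motifs, while both Tef windows held the E-box.
Per1: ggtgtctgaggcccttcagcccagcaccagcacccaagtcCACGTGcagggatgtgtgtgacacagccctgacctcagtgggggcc
Per3: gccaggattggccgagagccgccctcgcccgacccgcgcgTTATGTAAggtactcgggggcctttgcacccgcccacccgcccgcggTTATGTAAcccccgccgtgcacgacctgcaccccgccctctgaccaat
Cry2: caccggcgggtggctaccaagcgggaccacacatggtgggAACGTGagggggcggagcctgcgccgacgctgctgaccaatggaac
Nr1d1: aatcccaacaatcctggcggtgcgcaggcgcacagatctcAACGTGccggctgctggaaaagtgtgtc
Ciart: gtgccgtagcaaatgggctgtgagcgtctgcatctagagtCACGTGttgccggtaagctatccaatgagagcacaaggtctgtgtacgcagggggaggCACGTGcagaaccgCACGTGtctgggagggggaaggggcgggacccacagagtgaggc

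Levels below are log2 normalized intensities, each array's value in replicate order, and a level of one probe is not set against that of another. Between 10028 and 11952 probes were detected per array, and the number of arrays limits the precision. The scatter of undetected probes differed with the diet, with SDs of 4.47 to 5.51 intensity units for chow and 6.54 to 8.08 for high cholesterol samples. The probe for Met was dim, detected by 5 of 8 chow and 2 of 8 high cholesterol arrays and by 4 KO arrays in all, and its place relative to the deletion is not stated, so Met did not check the genotype labels.

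Among the repressors of the loop, Per1 was lowest in chow KO livers. Its levels were 8.56, 7.99, 7.73 and 8.05 in chow WT, and 6.40, 7.52, 7.19 and 7.12 in chow KO. On the high cholesterol diet they were 8.43, 8.74, 7.27 and 8.67 in WT, and 8.22, 8.66, 7.88 and 8.15 in KO. Every chow KO array lay below every chow WT and every high cholesterol KO array, but high cholesterol WT replicate 3 (7.27) lay below the highest chow KO array, and the other 3 groups, with means of 8.08 ± 0.35 (SD, n = 4), 8.28 ± 0.69 and 8.23 ± 0.32, lay within each other's spread.

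Cry2, whose protein holds back BMAL1 and CLOCK together with the PER proteins, had the same order of groups at its low end. Levels were 7.13, 6.44, 6.46 and 6.29 in chow WT, against 5.60, 5.60, 6.02 and 6.18 in chow KO. High cholesterol livers had 6.81, 6.61, 6.22 and 7.05 in WT, and 7.21, 6.60, 6.66 and 7.05 in KO. For Cry2 the chow KO arrays lay below all arrays of the other groups, whose means of 6.58 ± 0.38, 6.67 ± 0.35 and 6.88 ± 0.30 did not differ beyond their spread. The Cry1 probe, by contrast, had signals from -15.0 to 1.48 intensity units, all not detected, so nothing can be said of Cry1 transcript in any group.

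Per2 varied most among high cholesterol livers. It measured 9.94, 8.80, 9.08 and 8.84 in chow WT and 8.60, 8.31, 8.58 and 8.57 in chow KO. In high cholesterol livers it was at 9.09, 9.46, 7.26 and 8.56 in WT and at 9.03, 9.01, 7.43 and 8.68 in KO. The arrays numbered 3 were the lowest in both high cholesterol groups, and the range there, 4.57-fold in WT and 3.04-fold in KO, compared with 2.20-fold and 1.22-fold on chow.

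Per3, the family member that is dispensable for rhythms in mice, was dim. It was detected on all 8 chow arrays, on 2 of 4 high cholesterol WT and on 3 of 4 high cholesterol KO arrays. Its levels were 5.91, 5.07, 5.84 and 5.39 in chow WT, 6.09, 5.52, 5.66 and 5.32 in chow KO, 6.04, 6.51, 4.74 and 4.88 in high cholesterol WT, and 5.92, 6.07, 4.87 and 5.50 in high cholesterol KO. Replicates 1 and 2 were the highest and replicate 3 the lowest of both high cholesterol groups, and the 4 group means, from 5.54 to 5.65, did not differ beyond their spread.

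The REV-ERB genes moved apart between the diets. Nr1d1 levels were 7.59, 7.94, 7.72 and 7.71 in chow WT and 7.78, 7.78, 8.08 and 7.94 in chow KO, against 6.90, 7.05, 6.51 and 7.36 in high cholesterol WT and 7.19, 7.47, 6.37 and 7.74 in high cholesterol KO. Within each genotype all 4 high cholesterol arrays lay below all 4 chow arrays. Nr1d2 levels were 7.58, 7.42, 6.04 and 6.81 in chow WT and 6.53, 6.44, 6.62 and 6.74 in chow KO, against 8.23, 8.25, 7.51 and 7.74 in high cholesterol WT and 7.95, 8.20, 7.51 and 8.15 in high cholesterol KO. Here the high cholesterol arrays lay above the chow arrays, except that chow WT replicate 1 (7.58) exceeded the lowest high cholesterol WT array.

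Dbp, the output factor of the loop, had nearly equal group means and very unequal arrays. On chow it was at 11.70, 12.13, 11.65 and 12.38 in WT and at 12.50, 11.88, 12.16 and 11.94 in KO. High cholesterol WT livers had 12.95, 13.00, 11.67 and 11.09, and high cholesterol KO livers 13.23, 12.90, 10.46 and 12.16. The 4 means were 11.96 ± 0.35, 12.12 ± 0.28, 12.18 ± 0.95 and 12.19 ± 1.23. The brightest and dimmest array of a group differed 1.66-fold in chow WT, 1.54-fold in chow KO, 3.76-fold in high cholesterol WT and 6.79-fold in high cholesterol KO. Among all 9265 genes tested, 1.27% had a larger SD than Dbp in high cholesterol WT and 0.583% in high cholesterol KO, while on chow these shares were 16.5% and 22.3%.

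Of the activators, Arntl was near background. It was detected by 3 of 4 arrays in chow KO and by 1 of 4 in each of the other groups. Its levels were 4.83, 4.78, 5.18 and 4.82 in chow WT, 4.82, 5.44, 5.15 and 5.09 in chow KO, 4.83, 4.55, 5.33 and 4.95 in high cholesterol WT, and 4.59, 4.46, 5.57 and 4.61 in high cholesterol KO. The single array that detected it in chow WT and in each high cholesterol group was the one numbered 3. Clock was detected on all 16 arrays, at 8.65, 8.56, 8.93 and 8.49 in chow WT and 8.69, 8.79, 8.81 and 8.88 in chow KO. On the high cholesterol diet it was at 7.95, 7.55, 8.75 and 8.30 in WT and at 7.84, 7.86, 8.62 and 8.22 in KO. In KO all high cholesterol arrays lay below all chow arrays, whereas in WT high cholesterol replicate 3 reached into the chow range. Groups also ranked alike for both genes at the top, with chow KO highest, at 5.12 ± 0.25 for Arntl and 8.79 ± 0.08 for Clock, but the other group means of Arntl, from 4.81 to 4.92, lay within their spread.

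**Figure D1:**
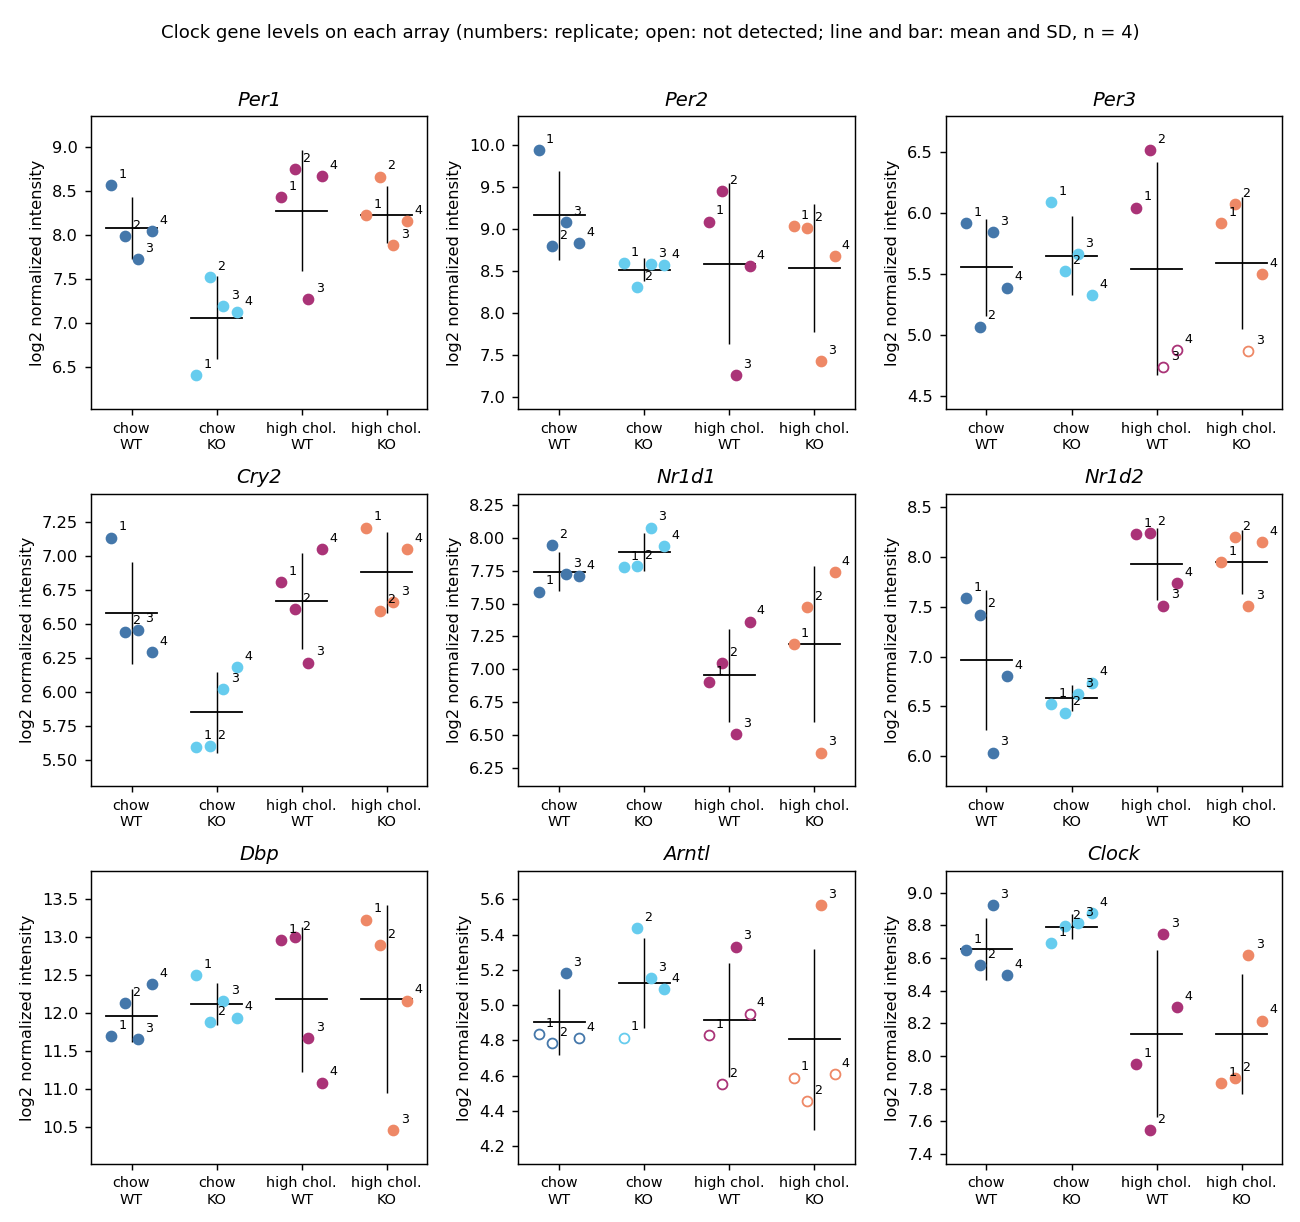
Level of each tested clock gene on each array, as log2 normalized intensity, by diet and genotype, with numbers for the replicate, open symbols for arrays that did not detect the probe, and a line and bar for mean and SD (n = 4). The chow KO mean is lowest for Per1 and Cry2, Nr1d1 and Nr1d2 shift in opposite directions with the diet, and Dbp spreads over 10.46 to 13.23 in high cholesterol KO.

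The diet comparison within WT mice asked how the liver, here its clock genes, differed after cholesterol and cholate feeding. Neither array run nor hour of collection is stated, and the scatter of undetected probes did not overlap between the diets. Diet therefore cannot be told apart from run or hour in any diet comparison here. Nr1d2 rose by 0.97 ± 0.27 (standard error; 1.96-fold, adjusted p = 0.0147) and Nr1d1 fell by 0.79 ± 0.23 (1.72-fold, adjusted p = 0.0196). These and all adjusted p-values come from limma's moderated test, two-sided, with Benjamini-Hochberg adjustment over all genes. Clock was at -0.52 ± 0.22 (adjusted p = 0.0864) and did not pass. Thus 2 of 9 clock genes passed, 1 in each direction, where 25.4% of all genes did. For 1 of the 9, Nr1d1, the groups did not overlap, as for 25.4% of all genes. The other members stayed below the threshold, with Per1 at 0.20 (95% interval -0.43 to 0.82), Per2 at -0.57 (-1.43 to 0.28), Per3 at -0.01 (-0.75 to 0.73), Cry2 at 0.09 (-0.37 to 0.55), Arntl at 0.01 (-0.46 to 0.48) and Dbp at 0.21 (-0.81 to 1.23). The median over the 9 genes was 0.01, against -0.02 over all genes. Nr1d1 no longer passed without chow WT replicate 2 (-0.72, adjusted p = 0.0559) or high cholesterol WT replicate 3 (-0.64, adjusted p = 0.0655), while Clock passed without high cholesterol WT replicate 3 (-0.73, adjusted p = 0.0162).

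In KO mice 5 of 9 clock genes passed in the same diet comparison. Nr1d2 rose by 1.37 ± 0.27 (2.59-fold, adjusted p = 0.00137), Cry2 by 1.03 ± 0.22 (2.04-fold, adjusted p = 0.00225) and Per1 by 1.17 ± 0.30 (2.26-fold, adjusted p = 0.00771). Clock fell by 0.66 ± 0.22 (1.58-fold, adjusted p = 0.0316) and Nr1d1 fell by 0.70 ± 0.23 (1.63-fold, adjusted p = 0.0328). These 3 higher and 2 lower genes compare with 27.6% of all genes called in either direction. The groups did not overlap for these 5 genes, as for 30.3% of all genes. Per2 was at 0.02 (95% interval -0.83 to 0.88), Per3 at -0.06 (-0.80 to 0.68), Dbp at 0.07 (-0.95 to 1.09) and Arntl at -0.32 (-0.79 to 0.15). The median of the members was 0.02 and that of all genes -0.03.

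The calls in KO were not equally firm. Nr1d2, Cry2 and Per1 passed without any 1 of the 16 arrays. Per1 has a second kept probe, dimmer than the one used, which was at 0.52 ± 0.27 in this comparison (adjusted p = 0.158 with probes tested singly) and thus did not pass. Clock no longer passed without chow KO replicate 2, 3 or 4 or high cholesterol KO replicate 1, 2 or 4, with adjusted p from 0.0505 to 0.091. Nr1d1 did not pass without chow KO replicate 1, 3 or 4 or high cholesterol KO replicate 1 or 3. Without high cholesterol KO replicate 3 it was at -0.43 (adjusted p = 0.102), and Arntl then passed (adjusted p = 0.0306), although no remaining array of that group detected it, so no size is given.

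Markers of some other cells also differed between the diets, and their part in these clock gene differences was not tested. Summed over 7 tested of 11 listed markers of recruited macrophages, the intensity was 648 to 877 on chow arrays, 2139 to 9651 in high cholesterol WT and 1228 to 2720 in high cholesterol KO, with Itgax, Ccr2 and Lyz1 never detected. The sum over 2 tested of 6 neutrophil markers was 52 to 90 on chow, 224 to 420 in high cholesterol WT and 168 to 712 in high cholesterol KO. Over 4 tested of 6 cholangiocyte markers it was 174 to 305 on chow, 493 to 3169 in high cholesterol WT and 397 to 811 in high cholesterol KO. Spp1 is listed for both macrophages and cholangiocytes, so those sums need not be independent. Kupffer cell sums overlapped between the diets. Stellate cell sums were higher after the diet in WT only. Endothelial sums overlapped in WT but fell in KO (3597 to 3850 on chow, 2360 to 3386 after). Lymphocyte sums also overlapped in WT, and in KO were 49 to 63 on chow and 66 to 68 after. They rest on 2 tested of 10 listed markers, with Cd3e, Cd8a and Nkg7 never detected. Such sums lie near background, so no rise of lymphocyte markers is read from them. Hepatocyte markers, 5 tested of 8, summed to 59258 to 83293 on chow and to 53775 to 80018 on the high cholesterol diet, overlapping between the diets. In whole liver RNA, fewer cells of a type and less RNA per cell cannot be told apart.

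**Figure D2:**
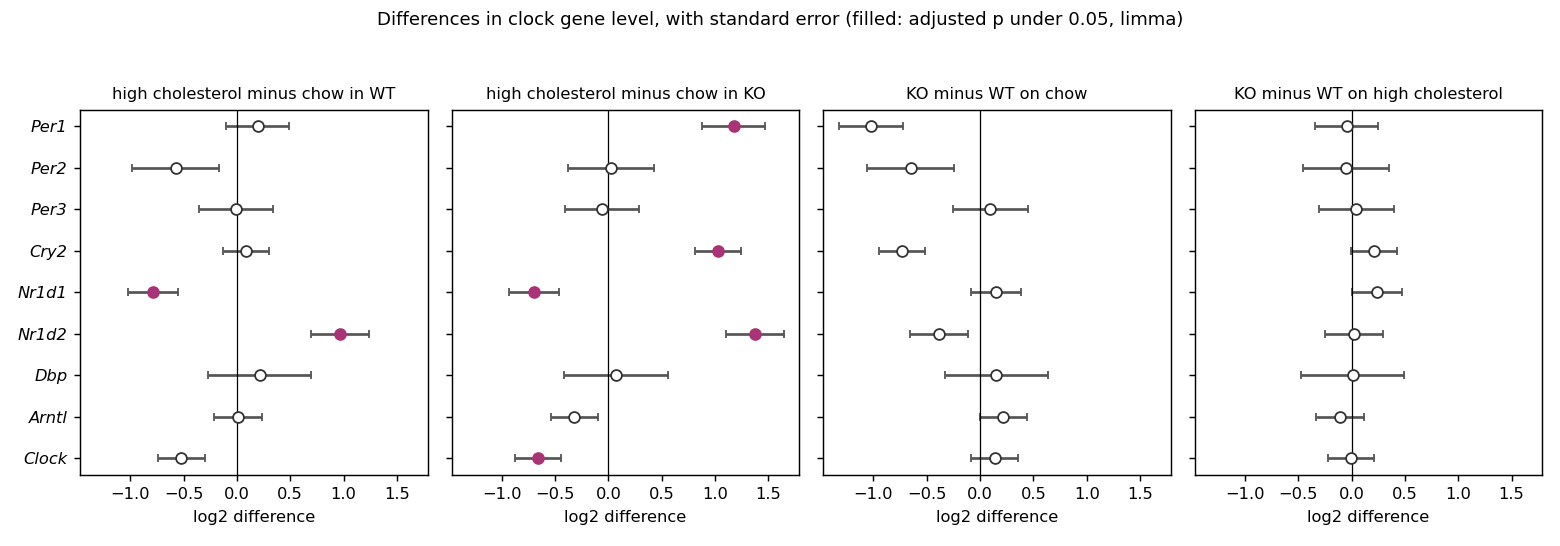
Log2 difference of each tested clock gene in the 2 diet and the 2 genotype comparisons, with its standard error (n = 4 arrays per group); filled symbols have an adjusted p under 0.05. Filled symbols appear in the diet comparisons, 2 in WT and 5 in KO, and in neither genotype comparison.

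On chow, the comparison of KO with WT asked what the loss of c-Met alters without the diet. No clock gene passed limma's test, and 0% of all genes passed it, although 2 of the 9 clock genes had an unadjusted p under 0.05. The arrays of the genotypes did not overlap for 3 of 9 clock genes, Per1, Cry2 and Per2, all lower in KO, where 13.7% of all genes were free of overlap. Per1 was at -1.02 (95% interval -1.65 to -0.40), with its second probe at -0.78 ± 0.27 (adjusted p = 0.207). Cry2 was at -0.73 (-1.19 to -0.27) and Per2 at -0.65 (-1.50 to 0.20; adjusted p = 0.441), with a second Per2 probe at -0.92 ± 0.39 (adjusted p = 0.271). Nr1d2 was at -0.38 ± 0.27. Arntl was at 0.22 ± 0.22, Clock at 0.14 ± 0.22, Nr1d1 at 0.15 ± 0.23, Dbp at 0.15 ± 0.49 and Per3 at 0.10 ± 0.35. None of these latter values exceeded its standard error. Those errors rest on a single spread per gene fitted over all 4 groups, and several clock genes, such as Dbp, spread more widely on the high cholesterol diet. In a fit on the chow groups alone 74 genes passed, none of them a clock gene.

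Between KO and WT on the high cholesterol diet no clock gene differed detectably. None passed limma's test or had an unadjusted p under 0.05, and 0.162% of all genes passed. For 0 of 9 clock genes were the arrays free of overlap, against 3.92% of all genes. The estimates ran from -0.11 (Arntl, 95% interval -0.58 to 0.36) to 0.24 (Nr1d1, -0.25 to 0.72). Dbp was at 0.01, with an interval from -1.01 to 1.03 that leaves room for a 2-fold difference either way.

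Whether the diet response depended on genotype was tested by the interaction. No clock gene passed limma's test, against 0.0108% of all genes, and 2 of 9 had an unadjusted p under 0.05. These were Cry2, at 0.94 ± 0.31 (95% interval 0.29 to 1.59, adjusted p = 0.386), and Per1, at 0.98 ± 0.42 (0.09 to 1.86, adjusted p = 0.444). The larger diet differences of Cry2 and Per1 in KO than in WT were therefore not shown to differ between the genotypes. For Nr1d2 the interaction was 0.40 ± 0.38 and for Nr1d1 0.09 ± 0.33.

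Setting the arms of the loop against each other gave each array a score. That score has limits. Nr1d1 and Nr1d2, both in the driven arm, shifted oppositely between the diets (r = -0.51 over the 16 arrays), so their shifts partly cancel. Arntl, in the activator arm, was detected on only 6 arrays. For each array the mean deviation of 6 E-box and D-box driven genes (Per1, Per2, Per3, Nr1d1, Nr1d2 and Dbp) from the mean of all 16 arrays was compared with that of the 2 activators (Arntl and Clock), with no test. The difference, driven genes minus activators, was 0.31, 0.05, -0.55 and 0.04 in chow WT and -0.27, -0.71, -0.44 and -0.55 in chow KO. In high cholesterol livers it was 0.71, 1.28, -1.05 and -0.08 in WT and 0.88, 1.06, -1.17 and 0.48 in KO. All 4 chow KO arrays were negative, and chow WT replicate 3 lay among them. The group means were -0.04 ± 0.36, -0.49 ± 0.18, 0.22 ± 1.01 and 0.31 ± 1.02, so that the high cholesterol groups spanned the chow groups on both sides. The chow KO value depended on which genes made up the arms: with Dbp and Nr1d1 against Arntl alone its mean was 0.04 and that of chow WT 0.11. With the full arms and the authors' normalized values, the mean was -0.86 ± 0.35 in chow KO and -0.23 ± 0.52 in chow WT. The high cholesterol means were then 0.25 ± 1.82 in WT and 0.83 ± 1.90 in KO. Those values carry no offset, which widens the scale of dim genes such as Arntl, so their sizes are not set against the ones above.

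The arrays numbered 3 were opposite to those numbered 1 and 2 in both high cholesterol groups. In replicate 3 the driven genes were at -0.69 (WT) and -0.77 (KO) and the activators at 0.36 and 0.41. With Dbp and Nr1d1 against Arntl alone replicate 3 was likewise the lowest of both groups, at -1.08 in WT and -1.99 in KO. In replicates 1 and 2 the driven genes were between 0.40 and 0.65 and the activators between -0.63 and -0.29. Cry2, set apart from the arms, was likewise lowest in replicate 3 in WT, at -0.28 against 0.31 and 0.11 in replicates 1 and 2. In KO it was at 0.17 in replicate 3, between the 0.71 and 0.10 of replicates 1 and 2. The arrays numbered 3 detected 11088 and 10632 probes, the most of their groups, and the part of detection in the pattern was not tested. Replicate numbers carry no stated link between the genotypes, and the hour of sampling is unknown. Over all genes, with group means removed, 11 of 16 arrays correlated best with one of the same number in another group. What such arrays share was not tested, and the count expected without any link was not worked out.

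**Figure D3:**
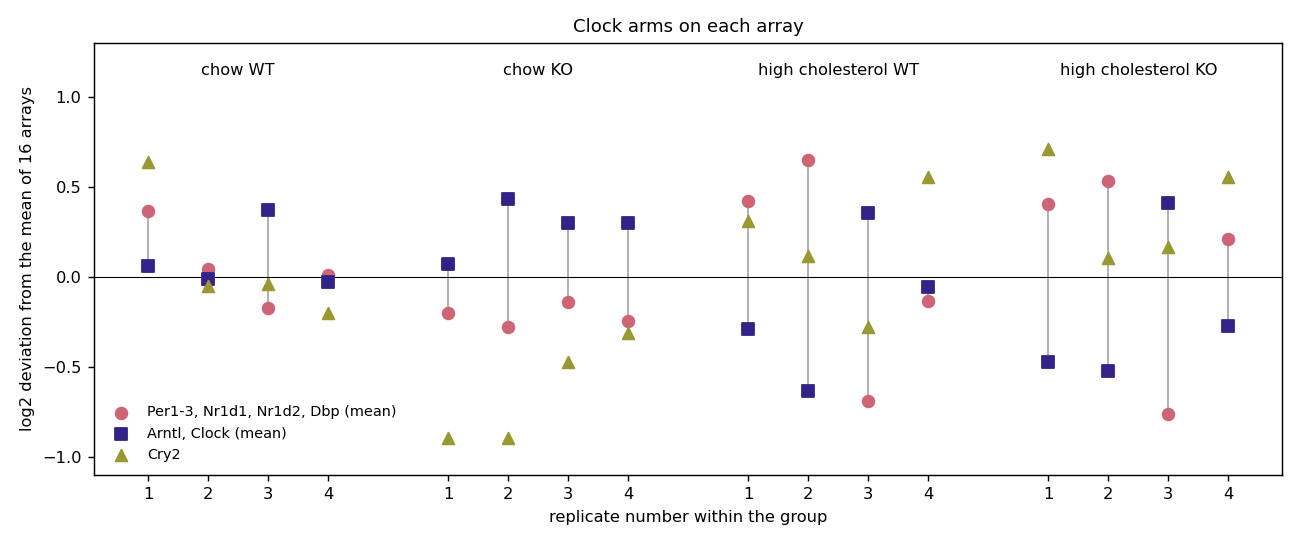
Mean log2 deviation from the mean of 16 arrays of the 6 E-box and D-box driven genes (circles) and of Arntl and Clock (squares), with Cry2 (triangles), for each array by group and replicate; grey lines join the arms. The arms are farthest apart on high cholesterol arrays, with circles on top in replicates 1 and 2 and squares on top in replicate 3.

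Within groups, with each group's mean removed, Clock ran opposite to Dbp. Pearson's r over the 16 arrays was -0.83 (rho -0.93), with -0.79 among the 8 chow and -0.84 among the 8 high cholesterol arrays, and -0.86 without both high cholesterol arrays numbered 3. All correlations here are descriptions, since the genes share arrays and normalization. Arntl ran with Clock (r = 0.84, and 0.68 without those 2 arrays) and opposite to Dbp (r = -0.81, then -0.57), although most Arntl values lay at background. Per2 and Clock had r = -0.81 overall but -0.96 among high cholesterol and 0.17 among chow arrays, so that their opposition rested on the high cholesterol arrays. For Per3 and Clock these values were -0.78, -0.96 and 0.24. Cry2 and Dbp had r = 0.01 over all arrays, -0.53 among chow and 0.18 among high cholesterol arrays, and Nr1d1 with Dbp turned from 0.42 to -0.62 without the 2 arrays numbered 3.

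Some further clock-linked genes spread in the same manner: Ciart and Usp2, which are among the genes most opposite to Arntl, and Tef, so all were picked with their values seen. Ciart (Gm129), a repressor of BMAL1 and CLOCK, was at 8.01, 7.99, 6.26 and 8.48 in chow WT and 6.09, 6.13, 6.29 and 6.23 in chow KO. In high cholesterol livers it was at 8.26, 8.90, 5.22 and 6.02 in WT and at 8.51, 8.36, 4.68 and 6.38 in KO. The range was 12.8-fold in WT, and none is given for KO because replicate 3 did not detect the probe. Replicates 1 and 2 were high and replicate 3 lowest, as for Dbp in KO. Usp2, a deubiquitinase that acts on clock proteins, ranged over 6.49-fold in high cholesterol WT and 9.09-fold in high cholesterol KO, with replicate 3 lowest in both. Tef, a PAR bZIP factor of the same family as Dbp, had r = 0.89 with Dbp within groups, as Ciart (0.89) and Usp2 (0.86) did. The core loop gene Bhlhb2 did not share the pattern, with SDs of 0.18 and 0.21 on the high cholesterol diet and WT replicate 3 the highest of its group (10.72). In no comparison did Ciart, Usp2 or Tef pass limma's test, with Usp2 nearest in the diet comparison of KO at 1.74 ± 0.65 (adjusted p = 0.0549).

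**Figure D4:**
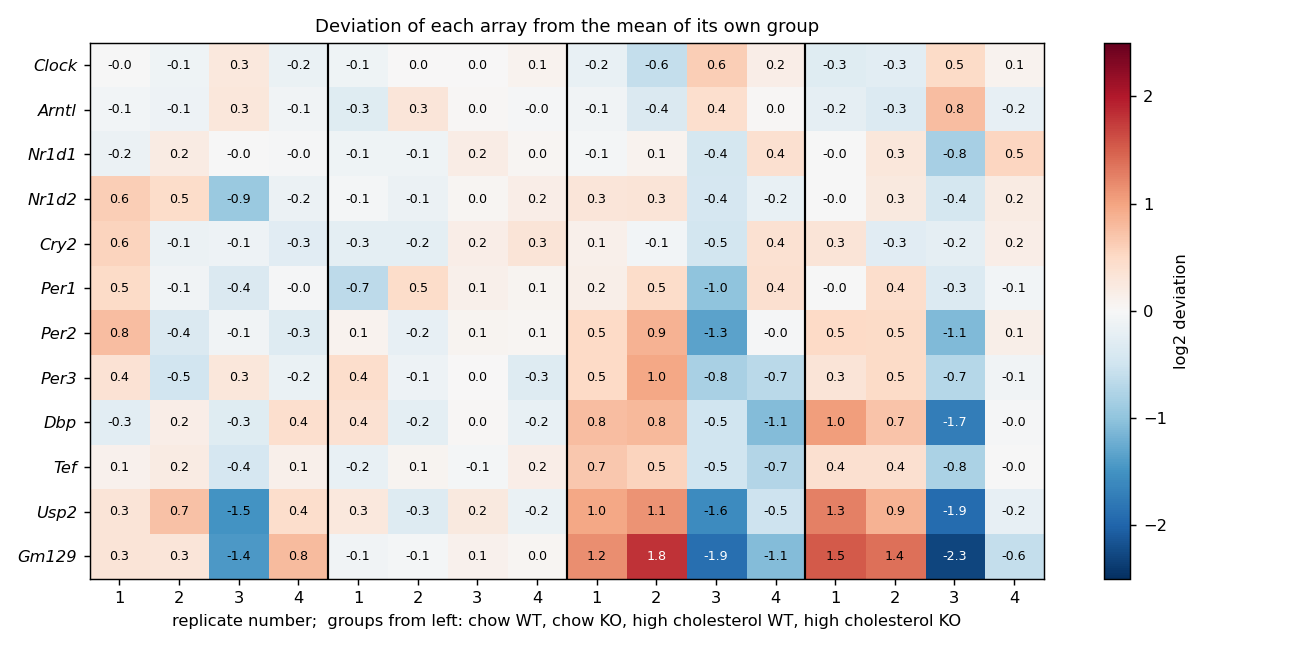
Log2 deviation of each array from the mean of its own group for the 9 tested clock genes and for Tef, Usp2 and Gm129 (Ciart), with groups separated by lines. Dbp, Tef, Usp2 and Gm129 are above their group means in high cholesterol replicates 1 and 2 and below them in replicate 3, where Clock and Arntl are above theirs.

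Over the 16 arrays and 9256 other genes, the transcripts most like Dbp were Acot1, an acyl-CoA thioesterase (r = 0.90, rho 0.84), Pcsk4, a proprotein convertase (r = 0.90), Acot7, another thioesterase (r = 0.88), Adhfe1, a mitochondrial transhydrogenase (r = 0.85), and Bag5, a co-chaperone (r = 0.83). Most opposite were H2-M3, a class Ib histocompatibility antigen (r = -0.92), Chd4, a chromatin remodeller (r = -0.92), Slc1a4, a neutral amino acid transporter (r = -0.88), the kinase gene Mapkapk2 (r = -0.86) and LOC100038882 (r = -0.85). Without high cholesterol KO replicates 1 and 3, the arrays farthest in Dbp, these 10 values lay between 0.77 and 0.89 in size. Acot1 illustrates the pattern, with an SD of 0.19 and 0.18 on chow and of 0.65 and 1.14 on the high cholesterol diet.

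For Arntl the highest correlations were with Glipr2 (r = 0.87), the tRNA methyltransferase gene Mettl6 (r = 0.87), H2-M3 (r = 0.82), Slc1a4 (r = 0.81) and the integrin activator gene Fermt3 (r = 0.81). Its lowest were with Cmas, of sialic acid activation (r = -0.83), Usp2 (r = -0.82), the sulfotransferase gene Sult1c2 (r = -0.81), Als2cr13 (r = -0.80) and Gm129 (r = -0.80). H2-M3 and Slc1a4 thus stood among the genes most opposite to Dbp and most like Arntl. Each of these genes was picked as an extreme of all genes, so the size of r is no support for a relation.

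Further genes of the loop were counted against the 25.4% of all genes that passed between the diets in WT and the 27.6% in KO, and so were the lists that follow. Of 12 listed core loop genes 7 could be tested. After cholesterol feeding 1 was higher and 1 lower in both WT and KO, and 0 passed between the genotypes or in the interaction. These 2 of 7 are near the share of all genes. Bhlhb2 (now Bhlhe40), which encodes the E-box repressor DEC1, rose by 0.56 ± 0.15 in WT (adjusted p = 0.0105) and 0.63 ± 0.15 in KO (adjusted p = 0.0045). The groups of Bhlhb2 did not overlap, with chow arrays from 9.64 to 10.12 and high cholesterol arrays from 10.30 to 10.81. Hlf, the third PAR bZIP gene, was lower at adjusted p = 0.0487 and 0.0131, but it was detected on 0 high cholesterol arrays and 3 of 4 arrays of each chow group, so no fold is given. In WT the Hlf call ended without any 1 of 13 arrays, among them chow WT replicates 1 to 3 and all 4 high cholesterol WT arrays, and the weakest value came when chow WT replicate 2 was left out (adjusted p = 0.152).

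Among kinases and ubiquitin system genes that act on clock proteins, 7 of 12 were tested. After cholesterol feeding 0 were higher and 1 lower in WT, and 0 and 3 in KO, beside the 25.4% and 27.6% of all genes. Csnk2a1, a casein kinase 2 subunit, was detected on 0 high cholesterol arrays and was at least 1.68-fold lower in WT (adjusted p = 7.49e-05). That bound sets the chow mean against the lowest signal detected on each high cholesterol array. Csnk2a1 also passed in KO (adjusted p = 0.041), where no fold is given and the call ended without chow KO replicate 1, 2 or 3 or any 1 high cholesterol KO array (adjusted p up to 0.131). Gsk3b, a kinase that phosphorylates REV-ERB alpha, fell by 0.44 ± 0.14 in KO (adjusted p = 0.0298), and Prkaa2, of the AMP-activated kinase, by 0.40 ± 0.14 (adjusted p = 0.0391). The Gsk3b call ended without chow KO replicate 2 or 3 or high cholesterol KO replicate 3 or 4 (adjusted p up to 0.105). The Prkaa2 call ended without chow KO replicate 1, 2 or 3 or high cholesterol KO replicate 1, 3 or 4 (adjusted p up to 0.112).

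Of 16 liver outputs of the clock 15 were tested, with 3 higher and 2 lower after cholesterol feeding in WT and 4 higher and 2 lower in KO, beside the 25.4% and 27.6% of all genes. Elovl3, a fatty acid elongase with a strong daily rhythm in mouse liver, fell by 3.05 ± 0.34 in WT (adjusted p = 1.15e-05) and 3.92 ± 0.34 in KO (adjusted p = 6.45e-07), but only 1 of 4 arrays of each high cholesterol group detected it, so both sizes rest on values near background. The vasopressin receptor gene Avpr1a fell by 1.39 ± 0.32 in WT and 1.57 ± 0.32 in KO (adjusted p = 0.0043 and 0.00162). Por, the electron donor of cytochromes P450, rose by 1.39 ± 0.32 and 1.23 ± 0.32 (adjusted p = 0.00481 and 0.00959). Nampt, the rate-limiting enzyme of NAD salvage, rose by 1.19 ± 0.30 and 1.47 ± 0.30 (adjusted p = 0.0076 and 0.00169). The medians of this list were 0.16 in WT and 0.09 in KO, against -0.02 and -0.03 over all genes.

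Genes that respond to signals known to set the liver clock were described in the same way. Of 11 tested fasting genes 1 was higher and 0 lower in WT, and 1 and 1 in KO, beside the same 25.4% and 27.6% of all genes. Pck1, of gluconeogenesis, rose by 1.82 ± 0.32 and 2.02 ± 0.32 (adjusted p = 0.000568 and 0.000202), and the coactivator gene Ppargc1a fell by 0.84 ± 0.23 in KO (adjusted p = 0.0118). Among feeding genes, the desaturase gene Scd1 rose by 0.99 ± 0.15 in WT and 1.06 ± 0.15 in KO (adjusted p = 0.000159 and 6.72e-05). Fasn passed as higher in KO (adjusted p = 0.0355), detected on 0 of 4 chow KO and 3 of 4 high cholesterol KO arrays, and the call ended without any 1 chow KO array or high cholesterol KO replicate 2 or 4 (adjusted p up to 0.122). Of 9 glucocorticoid responsive genes Dusp1 and Sgk1 rose in WT, by 1.15 ± 0.30 and 1.04 ± 0.28 (adjusted p = 0.00882 and 0.0129). Lcn2, another of this list, was at 8.26, 7.58, 13.33 and 6.99 in high cholesterol KO, and replicate 4 lay within the chow KO range of 6.04 to 7.03. Its difference in KO was 2.54 ± 0.88 (adjusted p = 0.0405), but 1.11 without high cholesterol KO replicate 3 (adjusted p = 0.0125), and the call ended without any 1 chow KO array (adjusted p up to 0.0908). The WT difference of Lcn2, 1.97 ± 0.88, missed the threshold (adjusted p = 0.11), with all high cholesterol arrays (8.07 to 8.96) above all chow arrays (6.29 to 6.84). Of 8 heat shock and temperature genes Hspb1 rose in both genotypes, by 1.90 ± 0.28 and 1.03 ± 0.28, and Hsp90ab1 in KO, by 0.43 ± 0.11 (adjusted p = 0.00929). None of these genes passed between the genotypes on either diet or in the interaction.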

How the data were processed

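Liver RNA was converted to biotinylated cRNA with an Ambion kit, per the labels' protocols, and read with GenomeStudio 2009.1, per the submitters' processing notes. The deposited table gives each probe's intensity, background-subtracted and not normalized between arrays, with a detection p-value beside it. A second deposited table holds intensity values that the authors quantile-normalized. They were used as an alternative on the log2 scale, with values below 1 set to 1 and no offset.

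Intensities were corrected with the normexp model fitted on detection p-values (offset 16), quantile-normalized and log2-transformed in limma 3.58.1 (R 4.3.3). The offset understates changes of dim genes. A probe needed a detection p below 0.05 on 4 or more arrays, which 12248 of 25697 met, and the brightest kept probe stood for a gene, which gave 9265 genes. Group means were fitted over all 16 arrays with lmFit and eBayes, in 5 comparisons, at an adjusted p of 0.05. The members, lists, arms and the rule for naming genes (all members, Met, up to 4 passing genes per list and comparison, and the 5 highest and 5 lowest correlations with Dbp and Arntl) were chosen with earlier results of these data known. Some results of the feeding list are not reported here. Of the symbols, 17262 of 18138 were found in RefSeq (GRCm38.p6). The fit was tested on simulated data. Alternatives were other normalizations, filters, probe rules and fits, a block on the replicate number, and each array left out. Leaving out both high cholesterol arrays numbered 3 was chosen after seeing the data. Plots used matplotlib 3.10.9 (Python 3.11.15).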

Additional observations from a re-analysis of the deposited data

Results flagged for a closer look

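In 3 of 36 checks of a clock gene within a group, 1 array stood apart from the other 3 of its group by more than Dixon's 95% critical value for 4 samples, which chance does in about 1 of 20 such checks. Per2 was at 8.31 in chow KO replicate 2, below the 8.57 to 8.60 of the other arrays. Arntl was at 5.18 in chow WT replicate 3, above the 4.78 to 4.83 of the others, which did not detect it. It was also at 5.57 in high cholesterol KO replicate 3, above the 4.46 to 4.61 of the others, which again did not detect it.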

How the results depend on the processing

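No call of a clock gene reversed under any of the 30 alternatives run. Nr1d2 in both genotypes and Cry2 in KO passed the diet comparison under all of them, as did the Per1 probe used, but not the second Per1 probe, in KO. The values that moved are as follows. The clock genes called between the diets in KO were 3 with the authors' normalized values and 3 with no detection filter, where Clock and Nr1d1 missed the threshold (adjusted p from 0.0506 to 0.0574), and 3 to 5 without 1 array; in WT they were 1 to 2 without 1 array. With array weights 1 clock gene, Per1, was called between the genotypes on chow (-0.93, adjusted p = 0.0394). Clock passed the diet comparison in WT with array weights (adjusted p = 0.0121) and, without both high cholesterol arrays numbered 3, at -0.73 (adjusted p = 0.00714). Arntl then passed in KO (adjusted p = 0.0169), with no high cholesterol KO array left that detected it, and Nr1d1 did not, at -0.43 (adjusted p = 0.0586). In a fit on only the groups compared Nr1d1 did not pass in KO (adjusted p = 0.0594). The causes were not tested.

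Counts over all genes moved too. KO against WT on chow, 0 in the analysis reported, gave 3 with cyclic loess, 2 with median scaling, 4 with the authors' values, 3 with no detection filter, 3 with the mean of probes, 2 with probes tested singly, 1 with a variance trend and robust estimation, 351 with array weights, 74 in a fit on only the groups compared, 9 without both arrays numbered 3, and 0 to 8 without 1 array. KO against WT on the high cholesterol diet, 15 as reported, gave 26 with median scaling, 0 in a fit on only the groups compared and 5 to 25 without 1 array. The interaction, 1 as reported, gave 3 with median scaling, 0 with the authors' values, 0 with no detection filter, 3 with array weights, 2 without both arrays numbered 3 and 0 to 9 without 1 array. Median scaling shifted the median of all genes to between -0.14 and -0.01 and turned the balance of the diet calls, to 1099 higher and 1315 lower in WT and 1016 and 1347 in KO, from 1265 and 1089 and from 1411 and 1148.

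With the replicate number as a block, 2 genes passed between the genotypes on chow and 0 in the interaction, and Clock passed the diet comparison in WT (adjusted p = 0.0355). The numbers were not taken to pair the samples: same-numbered arrays of the genotypes correlated by 0.099 to 0.274 on the high cholesterol diet and by -0.107 to 0.104 on chow. Between the diets within a genotype they correlated by -0.112 to 0.144. With matches sought only in other groups, 11 of 16 arrays correlated best with one of their own number, at most a hint of a link from the data only. The count expected without a link was not worked out. A block on slide or scan date was not run, since the files used here give neither. The stricter detection filter left Arntl untested, and dim signal limits Per3 and Cry1 too.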
